A study of Mus musculus with 14 samples.

Results

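The 10 genes described here are Acta2, Actg2, Tagln, Cnn1, Myh11, Myocd, Des, Cald1, Tpm2 and Lmod1, which encode or control the contractile apparatus of smooth muscle. They were taken by gene name, and all 10 are among the 50686 genes of the deposited count table and the 16181 genes of the deposited CPM table. RNA came from 2 mouse embryonic stem cell (ESC) lines, the control line shLacZ and the line shDis3l2, which stably express a short hairpin RNA (shRNA) against LacZ or against the exoribonuclease gene Dis3l2. Both lines were sampled undifferentiated in LIF/2i medium (d0) and, after LIF and 2i were withdrawn and embryoid bodies (EBs) were formed in hanging drops with serum, every other day from d2 to d12. This gave 14 libraries of polyA RNA, 1 for each line and day. Per the study's text both lines carry an Osr1-GFP reporter, and each shRNA is represented by 1 line. With 1 library per line and day there are no replicates, and a difference seen on 1 day can neither be checked against another library nor given a p-value. Reads were counted per gene, and levels are given as CPM, the reads of a gene scaled to the total reads of its library. Library totals ran from 7178712 to 39888099 reads, and the depth of the paired libraries differed 2.88-fold on d4 and 2.56-fold on d10, and by no more than 1.51-fold otherwise. The targeted gene Dis3l2 in the libraries labelled shDis3l2 stood at 13.7%, 28.1%, 32.1% and 55.2% of its shLacZ level from d0 to d6, and at 75.4% in the libraries of d12. In those of d8 and d10 it stood at 97.1% (95% interval 83.7 to 113%) and 94.98% (78.8 to 115%), so a lower level was not detectable on these days. A count of 0 allows a level of up to 3 reads, the floor, which by depth equals between 0.0752 and 0.418 CPM.

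Smooth muscle contracts when myosin filaments pull on actin filaments anchored to dense bodies, and its cells use their own isoforms of actin and myosin together with proteins that sit on the actin filament. Most of these genes are switched on by serum response factor (SRF), which binds the CArG box in their promoters together with myocardin or its relatives. Many of them are not restricted to smooth muscle: Acta2 and Tagln are also made by myofibroblasts and by early heart and skeletal muscle, Des by all muscle types, and forms of Cald1 and Tpm2 by many other cells, while Myh11 is the most restricted. EBs are a mixture of cell types, and in bulk RNA more cells of a type and more RNA per cell cannot be told apart.

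On the days from d6 onward most of the contractile genes were at least 3-fold higher in shDis3l2 than in shLacZ, and on the earlier days only Acta2 was, at d2. A gene was counted as higher on a day when its level was at least 3-fold that of the other line, provided that either library reached a CPM of 1. Only 3 of the 10 genes reached it at d0, 8 at d2 and 7 at d4, and all 10 did from d6. At d0 none of the 3 was higher, against 0.584% of the protein-coding genes compared. At d2 Acta2 alone of the 8 was higher, against 0.114% of all, and at d4 none of the 7 was, against 0.361%. At d6 the number was 7, all but Myh11, Des and Tpm2, against 2.7% of all genes. At d8 it was 9, all but Cald1, against 5.47%. At d10 it was 8, all but Cnn1 and Des, against 8.68%, and at d12 it was 6, namely Acta2, Actg2, Tagln, Myh11, Myocd and Tpm2, against 8.07%. Of the members that reached 1 CPM, none was at least 3-fold lower in shDis3l2 on any of the 7 days. The share of all genes that were lower was not computed for these days, so nothing is read from this count. Lmod1, which was under 1 CPM in both lines at d0, had a ratio of 0.215 (95% interval 0.0549 to 0.615) there. Intervals at d0 lay above 1 for Myh11 (8 reads against 0) and Tpm2 (1.3, 1.16 to 1.47), and below 1 for Des and Lmod1. At d2 they lay above 1 for Acta2, Cnn1 (1.27, 1.05 to 1.55) and Lmod1 (2.25, 1.21 to 4.33), and below 1 for Tpm2. The median log2 ratio of the members compared was 0.01, 0.06 and -0.16 in the libraries of d0, d2 and d4. It was 1.78, 3.56, 2.50 and 2.15 in those of d6 to d12. The median over all genes compared was -0.32 at d0 and lay between -0.07 and 0.05 from d2 to d12. CPM ratios of d0 thus carry a general shift that the later days do not show. With TMM factors or DESeq2 size factors, 3 member ratios of d0 moved out of their intervals. At d4 the libraries of 3 genes, Acta2, Tagln and Cald1, differed in the other direction, with intervals of the ratio that lay below 1.

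The lines were also compared with edgeR (quasi-likelihood test, Benjamini-Hochberg adjusted p under 0.05) over the 8 libraries of d6 to d12, blocked by day. In this fit the days of 1 culture series stand in for replicates. The p-values therefore measure how much the difference between the lines varied over these days, and say nothing of further cultures. All 10 genes rose in shDis3l2, where 19.6% of the 17164 genes tested rose. Their log2 fold changes ran from 0.96 for Des to 5.22 for Actg2 with a median of 2.69, beside a median of 0.02 over all genes. DESeq2 also called all 10. For 9 of the 10 genes, all but Des, every shDis3l2 library of d6 to d12 lay above every shLacZ library of these days, which held for 13.4% of the protein-coding genes that reached 1 CPM on those days. Over the whole course, d0 to d12, the same test called only Acta2 and Actg2, against 1.91% of all genes, with a median log2 fold change of 1.53 over the 10 genes. At an unadjusted p under 0.05 that fit called 9 of the 10, where 5323 of the 20050 genes tested passed in either direction. Without d8, d10 or d12 it called none of the 10 after adjustment, and 13, 8 and 12 genes in all. The tests share libraries and are not independent of each other. The 10 genes were chosen with earlier results of these data known, so their counts beside the shares of all genes are a description and not a test.

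**Figure D1:**
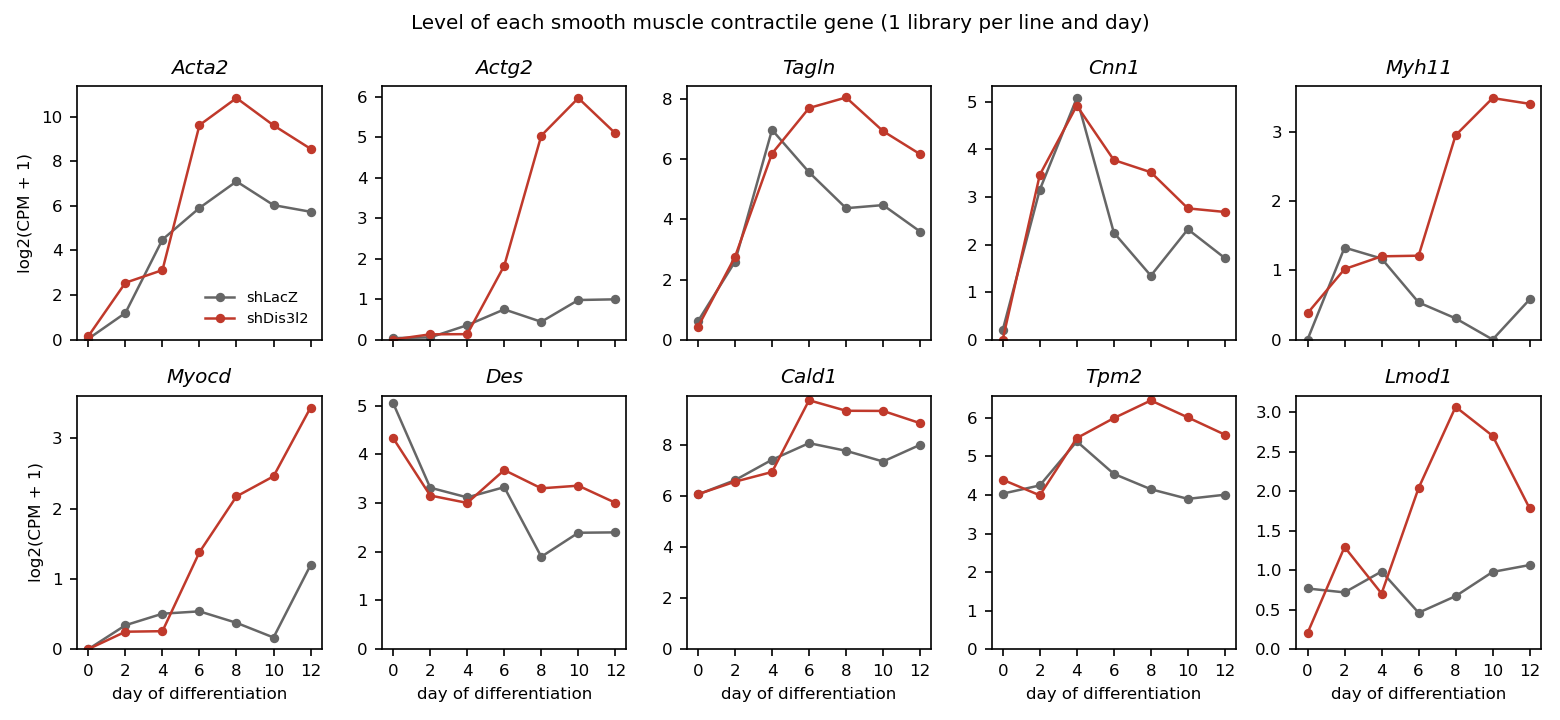
Level of each of the 10 genes as log2(CPM + 1) (vertical axis, scaled separately for each gene) against the day of differentiation (horizontal axis) in shLacZ and shDis3l2, with 1 library per point and a panel per gene. The lines run mostly close together from d0 to d4 and part from d6, where 9 of the 10 genes lie higher in every shDis3l2 library than in any shLacZ library.

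Acta2 (ENSMUSG00000035783, chromosome 19, 34241090 to 34255336, minus strand, GRCm38) encodes smooth muscle alpha-actin, the main actin of vascular smooth muscle. Acta2 was counted in shLacZ at 0.0251, 1.29, 21.5, 59.2, 136, 64.6 and 52.4 CPM on the 7 days in order, as are all series of 7 values below. In shDis3l2 these days gave 0.113, 4.86, 7.68, 791, 1838, 786 and 378 CPM. Both lines were near 0 in undifferentiated cells, where no more than 3 reads were counted, and both peaked at d8, but shDis3l2 stood below shLacZ at d4 and far above it from d6. The ratio of shDis3l2 to shLacZ was 3.77 at d2 (95% interval from read counting 2.54 to 5.73) and 0.358 at d4 (0.285 to 0.45). It was 13.4 at d6 (12.4 to 14.4), 13.5 at d8 (12.9 to 14.1), 12.2 at d10 (11.1 to 13.3) and 7.22 at d12 (6.59 to 7.92). From d4 to d6 the level moved 103-fold in shDis3l2 (88 to 121) and 2.76-fold in shLacZ (2.32 to 3.3). Over d6 to d12 the log2 fold change was 3.49 (SE 0.17, edgeR adjusted p = 0.000189). Such intervals hold for counting error alone, because amplified reads without molecular identifiers do not each stand for a separate molecule.

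The proximal promoter of Acta2 is shown because it was the only one of those read here that held boxes of the kind SRF binds. Promoter windows of 300 bases, 250 before to 50 after the RefSeq start (GRCm38.p6), were matched for 6 of the 10 genes in 7 windows, while Actg2, Tagln, Myh11 and Myocd were not matched. Both strands were searched for the CArG box, a motif of 10 bases with an inner run of A or T, and for CArG-like boxes in which 1 of the 6 inner bases is another base. The window of Acta2 lies at chr19:34255324-34255623 on the minus strand, and capitals mark its 2 CArG-like boxes:
Acta2: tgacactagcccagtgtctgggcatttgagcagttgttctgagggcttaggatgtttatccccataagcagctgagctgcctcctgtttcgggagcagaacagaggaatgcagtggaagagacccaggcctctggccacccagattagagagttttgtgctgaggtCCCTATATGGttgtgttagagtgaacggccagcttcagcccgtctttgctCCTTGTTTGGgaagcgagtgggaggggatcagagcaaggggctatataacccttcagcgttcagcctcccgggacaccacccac
The boxes, CCCTATATGG and CCTTGTTTGG, lie 121 to 112 and 71 to 62 bases before the gene start of the count table. Of 32851 RefSeq windows, 535 (1.63%) held a CArG box, 3280 (9.98%) a CArG box or a CArG-like box, and 270 (0.822%) at least 2 of these. In the windows of Des, Lmod1, Tpm2, Cald1 and Cnn1 these letters were not found. A match is a description of the sequence and binding was not measured.

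Actg2 (ENSMUSG00000059430, chromosome 6, 83512905 to 83536265, minus strand), the gamma-actin of visceral smooth muscle, appeared later than Acta2. Actg2 stayed under 1 CPM in all 7 shLacZ libraries, at 0.0251, 0.0379, 0.279, 0.676, 0.355, 0.968 and 0.992 CPM from d0 to d12. In shDis3l2 it was counted at 0, 0.0935, 0.0966, 2.54, 31.9, 61.6 and 33.2 CPM. It was at or below 3 reads in both lines until d4, so no ratio is given for those days. The ratio was 3.76 at d6 (1.72 to 9.09), 89.9 at d8 (41.1 to 246), 63.6 at d10 (32.2 to 148) and 33.5 at d12 (18 to 70.5), and the shLacZ libraries behind these ratios held between 6 and 10 reads. Its log2 fold change over d6 to d12 was 5.22 (SE 0.54, edgeR adjusted p = 0.000914), the highest of the 10.

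The actins are encoded by 6 genes whose coding sequences are nearly identical, so reads in shared stretches may be assigned to the wrong gene or lost and the level of each is uncertain. Levels of different genes are compared per length, as CPM per kilobase of exon. Beta-actin, encoded by Actb and made by nearly all cells, was at 1111, 1075, 1092 and 1071 CPM in shLacZ from d6 to d12 and at 1225, 1127, 943 and 1020 CPM in shDis3l2, and did not pass in the edgeR fit (log2 fold change -0.03, SE 0.08, adjusted p = 0.805). Of the summed level per length of the 6 actin genes, Acta2 and Actg2 together held 0.00405%, 0.180%, 2.11%, 7.19%, 15.4%, 7.78% and 6.53% in shLacZ from d0 to d12. In shDis3l2 they held 0.00504%, 0.738%, 0.801%, 47.8%, 69.4%, 54.6% and 35.8%. Thus the smooth muscle actins outweighed beta-actin at d8 and d10 in shDis3l2 and never in shLacZ. Actc1, the actin of heart and early muscle, was higher in shDis3l2 over d6 to d12 by a log2 fold change of 3.07 (SE 0.42, edgeR adjusted p = 0.00224), and reached at most 44.5 CPM. Acta1, the skeletal muscle actin, and Actg1, the cytoplasmic gamma-actin, gave -0.14 (SE 0.20, adjusted p = 0.612) and 0.10 (SE 0.20, adjusted p = 0.735).

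**Figure D2:**
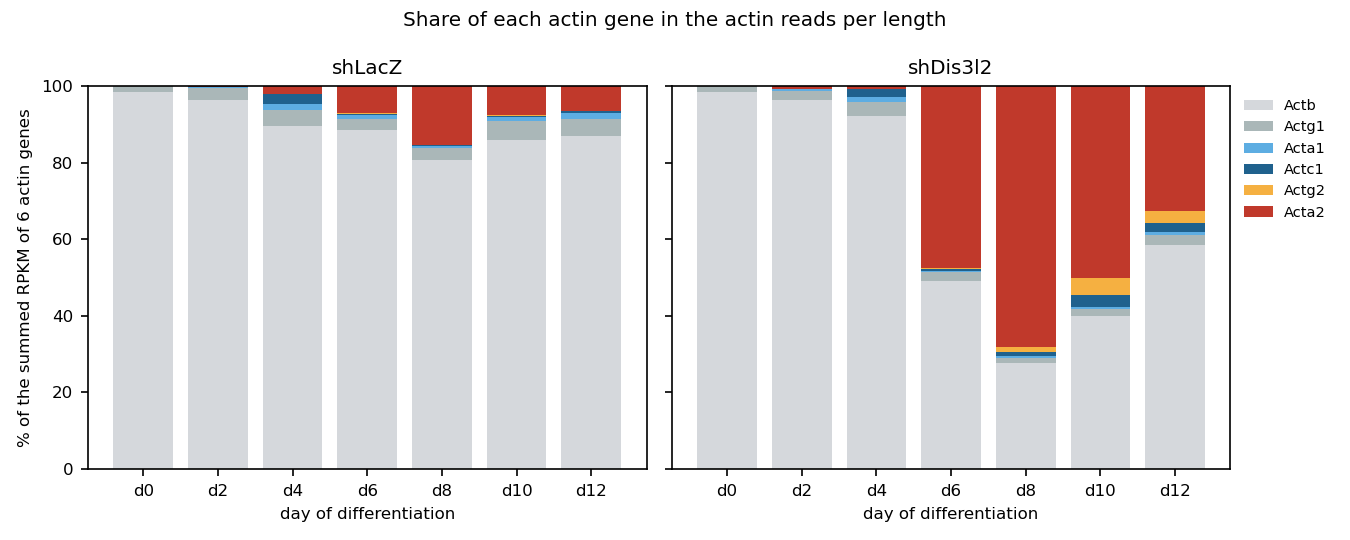
Share of each actin gene in the summed level per length of the 6 actin genes (vertical axis, percent) by day (horizontal axis), with shLacZ and shDis3l2 in separate panels. The smooth muscle actins Acta2 and Actg2 reach 15.4% in shLacZ and 69.4% in shDis3l2, both at d8.

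Tagln, Cnn1, Tpm2 and Cald1 encode proteins of the actin filament. Tagln (ENSMUSG00000032085, chromosome 9, 45929619 to 45936058, minus strand) encodes transgelin, also called SM22-alpha, an early marker of smooth muscle. Tagln stood at 0.526, 5.04, 126, 46.6, 19.8, 21.3 and 11.1 CPM in shLacZ and at 0.34, 5.75, 72.3, 209, 267, 122 and 71.3 CPM in shDis3l2. The level in shLacZ was highest at d4 and lower on every later day, while that in shDis3l2 went on to a maximum at d8. Its ratio was 0.575 at d4 (0.529 to 0.625), 4.48 at d6 (4.1 to 4.91), 13.5 at d8 (12.1 to 15.1), 5.73 at d10 (4.91 to 6.71) and 6.42 at d12 (5.25 to 7.89). The log2 fold change of Tagln over d6 to d12 was 2.77 (SE 0.25, edgeR adjusted p = 0.000648). Exons of Tagln share 108 bases with Pcsk7 and 1241 with Gm48529 on the opposite strand, and whether the counting used strand is not given in the sources used here. Gm48529 held 318 reads over the 14 libraries and Tagln 14723.

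Cnn1 (ENSMUSG00000001349, chromosome 9, 22099216 to 22109630, plus strand) encodes calponin, which binds actin and restrains the myosin motor, and its highest level in both lines was at d4. Cnn1 stood at 0.15, 7.88, 32.9, 3.76, 1.54, 3.99 and 2.28 CPM in shLacZ and at 0, 10, 29.3, 12.7, 10.5, 5.78 and 5.43 CPM in shDis3l2. From d4 to d6 shLacZ dropped to 0.114 of its level (0.0825 to 0.156) and shDis3l2 to 0.434 (0.357 to 0.524). The ratio of the lines was 0.892 at d4 (0.766 to 1.04), 3.39 at d6 (2.43 to 4.78), 6.81 at d8 (4.52 to 10.7), 1.45 at d10 (0.978 to 2.19) and 2.38 at d12 (1.45 to 4.04). At d10 a difference was therefore not detectable at this depth. Over d6 to d12 the log2 fold change was 1.58 (SE 0.35, edgeR adjusted p = 0.0123).

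Tpm2 (ENSMUSG00000028464, chromosome 4, 43514711 to 43523765, minus strand), beta-tropomyosin, lies along the actin filament. Tpm2 stood at 15.4, 18, 41, 22.4, 16.7, 13.9 and 15.1 CPM in shLacZ and at 20.1, 14.9, 43.5, 62.8, 86.7, 63.6 and 46.4 CPM in shDis3l2. Its level at d4 was nearly the same in both lines, with a ratio of 1.06 (0.931 to 1.22), and it then went down in shLacZ and up in shDis3l2. The ratio was 2.8 at d6 (2.44 to 3.22), 5.18 at d8 (4.56 to 5.89), 4.57 at d10 (3.77 to 5.58) and 3.07 at d12 (2.56 to 3.71). Over d6 to d12 Tpm2 gave a log2 fold change of 1.91 (SE 0.17, edgeR adjusted p = 0.000578).

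Cald1 (ENSMUSG00000029761, chromosome 6, 34598500 to 34775473, plus strand) encodes caldesmon, which binds actin and tropomyosin. Cald1 stood at 66.1, 97.9, 171, 270, 219, 163 and 258 CPM in shLacZ and at 66.4, 93.9, 123, 869, 652, 650 and 465 CPM in shDis3l2. It was present in every library, and at d0 the ratio was 1.01 (0.946 to 1.07), or 0.20 on the log2 scale with TMM factors and 0.40 with DESeq2 size factors. The ratio was 3.22 at d6 (3.1 to 3.35), 2.98 at d8 (2.87 to 3.09), 3.98 at d10 (3.76 to 4.21) and 1.8 at d12 (1.72 to 1.89). The log2 fold change over d6 to d12 was 1.52 (SE 0.18, edgeR adjusted p = 0.00134). Counts per gene do not separate the smooth muscle form of caldesmon from the form of other cells.

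Myh11 (ENSMUSG00000018830, chromosome 16, 14194527 to 14291408, minus strand) encodes the smooth muscle myosin heavy chain. In shLacZ Myh11 was counted at 0, 1.52, 1.25, 0.451, 0.237, 0 and 0.496 CPM, and in shDis3l2 at 0.302, 1.03, 1.3, 1.32, 6.77, 10.3 and 9.65 CPM. At d0 shDis3l2 held 8 reads and shLacZ held 0. The lines did not differ detectably at d2 and d4, and at d6 their ratio was 2.93 (1.06 to 9.29) on 14 and 6 reads. At d8 the ratio was 28.6 (10.9 to 106) and at d12 it was 19.5 (8.07 to 61.2). At d10 shLacZ held no read and shDis3l2 held 217, so that Myh11 was at least 28.3-fold higher with the floor of 3 reads set for shLacZ. Its log2 fold change over d6 to d12 was 4.24 (SE 0.64, edgeR adjusted p = 0.00311). The level remained low: per length at d8 in shDis3l2, Acta2 stood at 1032 and Myh11 at 1.02 CPM per kilobase.

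Lmod1 (ENSMUSG00000048096, chromosome 1, 135324807 to 135368065, plus strand) encodes the smooth muscle leiomodin, which nucleates actin filaments. Lmod1 stood at 0.702, 0.644, 0.975, 0.376, 0.592, 0.968 and 1.09 CPM in shLacZ, where it never passed 1.09 CPM, and at 0.151, 1.45, 0.628, 3.11, 7.38, 5.49 and 2.43 CPM in shDis3l2. The ratio was 8.28 at d6 (3.21 to 27.2), 12.5 at d8 (6.59 to 26.6), 5.67 at d10 (2.79 to 13.5) and 2.23 at d12 (1.07 to 5), on 5 to 11 reads in shLacZ. Lmod1 gave a log2 fold change of 2.61 over d6 to d12 (SE 0.41, edgeR adjusted p = 0.0036).

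Des (ENSMUSG00000026208, chromosome 1, 75360329 to 75368579, plus strand) encodes desmin, the intermediate filament of muscle, and differed least between the lines. Des stood at 32.1, 8.95, 7.66, 9.02, 2.72, 4.24 and 4.26 CPM in shLacZ and at 19.1, 7.9, 7.01, 11.8, 8.85, 9.23 and 7.02 CPM in shDis3l2. Its highest level in both lines was in undifferentiated cells, where shDis3l2 held 0.596 of the shLacZ level (0.536 to 0.661). With TMM factors or DESeq2 size factors this ratio was higher and lay outside that interval. The levels of d6 to d12 overlapped between the lines. The ratio was 1.31 at d6 (1.01 to 1.69), 3.25 at d8 (2.34 to 4.61), 2.18 at d10 (1.52 to 3.22) and 1.65 at d12 (1.12 to 2.45). Over d6 to d12 Des was higher in shDis3l2 than in shLacZ by a log2 fold change of 0.96 (SE 0.24, edgeR adjusted p = 0.0187). It was no longer called without d8 (adjusted p = 0.0754), without d10 (0.087) or with no day block (0.122).

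Myocd (ENSMUSG00000020542, chromosome 11, 65176561 to 65269989, minus strand) encodes myocardin, the coactivator of SRF in smooth muscle and heart, and is the regulator among the 10. Myocd stood at 0, 0.265, 0.418, 0.451, 0.296, 0.121 and 1.29 CPM in shLacZ and at 0, 0.187, 0.193, 1.6, 3.51, 4.5 and 9.83 CPM in shDis3l2. Neither line held a read at d0, and the levels in shDis3l2 ran upward from d6 to d12, although those of d8 and d10 could not be told apart. The ratio was 3.55 at d6 (1.34 to 11), 11.9 at d8 (4.85 to 37.7) and 7.63 at d12 (4.27 to 14.8). At d10 it was 37.2 (6.51 to 1483), on a single read in shLacZ. Over d6 to d12 the log2 fold change of Myocd was 3.11 (SE 0.41, edgeR adjusted p = 0.00194). Its partner Srf did not pass in this fit (log2 fold change 0.01, SE 0.13, adjusted p = 0.959), which averages differences in opposite directions. Srf was at 39.2, 39.4, 52.3 and 54.3 CPM in shLacZ from d6 to d12 and 49.7, 48, 41.2 and 46.9 CPM in shDis3l2. The ratio was 1.27 at d6 (1.12 to 1.43) and 1.22 at d8 (1.1 to 1.35), and the levels of d10 and d12 were lower in shDis3l2. Of the myocardin-related coactivators of SRF, Mkl1 gave 0.06 (SE 0.12, adjusted p = 0.699), while Mkl2 rose by 0.27 (SE 0.07, adjusted p = 0.0264).

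**Figure D3:**
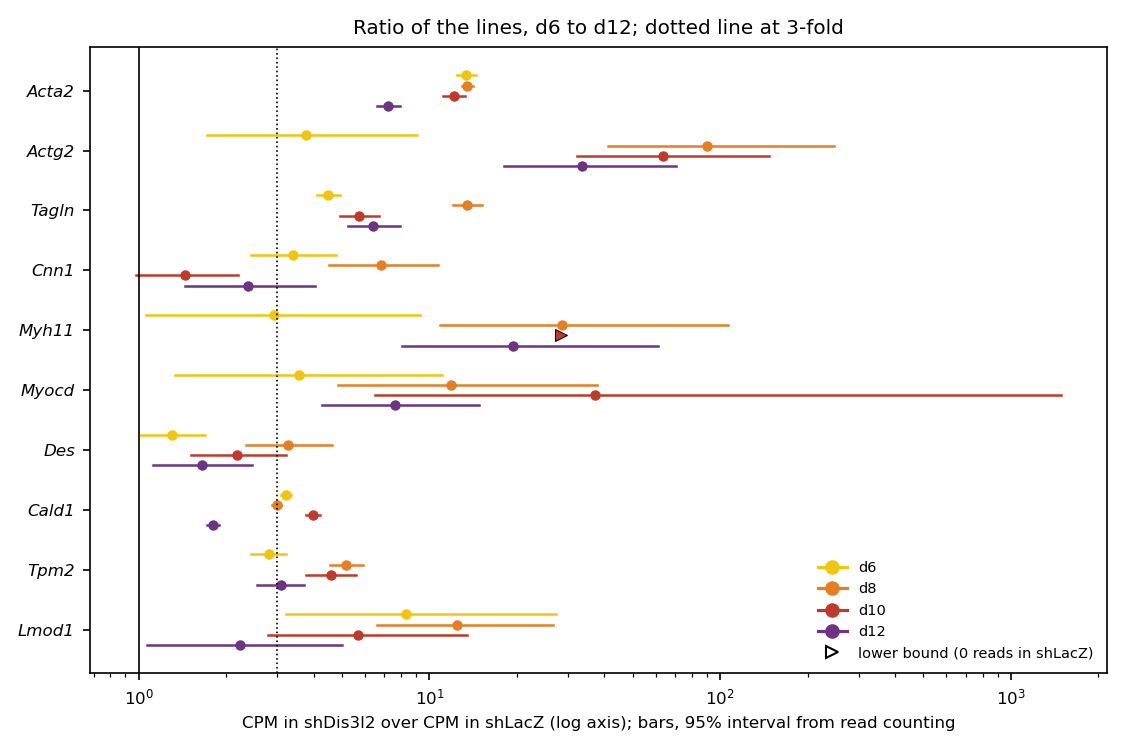
Ratio of the CPM in shDis3l2 to that in shLacZ (horizontal axis, log scale) for each of the 10 genes at d6, d8, d10 and d12, with the 95% interval from read counting as bars and the lower bound of Myh11 at d10, where shLacZ held 0 reads, as a triangle. All intervals lie above 1 except that of Cnn1 at d10 (0.978 to 2.19).

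The genes did not share a single time course. In shDis3l2 the highest level was reached at d0 by Des, at d4 by Cnn1, at d6 by Cald1, at d8 by Acta2, Tagln, Tpm2 and Lmod1, at d10 by Actg2 and Myh11, and at d12 by Myocd. Myh11 at d10 and d12 could not be told apart, with a ratio of 1.07 (0.839 to 1.36). In shLacZ Tagln, Cnn1 and Tpm2 were highest at d4, before the lines parted, and Acta2 at d8. From d8 to d12 in shDis3l2, Acta2 went down to 0.206 of its level (0.199 to 0.212), Tagln to 0.267 (0.247 to 0.288) and Lmod1 to 0.33 (0.209 to 0.503). Over the same days Myocd went to 2.8 times (2.05 to 3.85) and Myh11 to 1.43 times (1.09 to 1.86) its level, so the highest levels of the coactivator came after those of Acta2 and Tagln. Summed over the 10 genes, d6 to d12 gave 273 to 413 CPM in shLacZ and 1028 to 2913 CPM in shDis3l2. Acta2 made up 80.6% of the sum per length at d8 in shDis3l2 and 68.2% in shLacZ. The order of levels per length at d8 in shDis3l2 was Acta2 (1032 CPM per kilobase), Tagln (134), Cald1 (54.2), Tpm2 (29.8), Actg2 (20.5), Cnn1 (3.83), Des (2.36), Lmod1 (1.87), Myh11 (1.02) and Myocd (0.547). At d8 in shLacZ Actg2 stood at 0.228 CPM per kilobase, below Des at 0.725 and Cnn1 at 0.562.

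Within a line, the step from d4 to d6 separated the lines. At least 3-fold higher at d6 than at d4 in shDis3l2 were 5 of the 10, Acta2, Actg2, Myocd, Cald1 and Lmod1, against 8.33% of genes compared. In shLacZ 0 were higher, against 4.8%, and 1 was lower, Cnn1, against 5.87%. From d0 to d12, 8 of the 10 were higher in shDis3l2, all but Des and Tpm2, against 42.9%. In shLacZ 6 were higher over this span, against 31.8%, namely Acta2, Actg2, Tagln, Cnn1, Myocd and Cald1, and Des alone was lower, against 11.9%. Comparing d6 to d12 with d0 to d4 over both lines, edgeR called 4 genes higher in the later period, Acta2, Actg2, Myocd and Cald1, against 18.7%, and Des lower, against 25.6%. The other 5 did not pass. This fit held line and period but no day block, so the libraries of a day counted as separate samples, and its values average over both lines. The call of Des rested on d0, without which its log2 value was -0.18 (adjusted p = 0.633), where -1.41 (adjusted p = 0.0365) was fitted with all days, and it was also lost without d8, d10 or d12. Without d0 the member called lower was Cnn1 (-1.996, adjusted p = 0.00493).

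For 6 of the 10 genes the gap between the lines widened between the early period (d0 to d4) and the later one (d6 to d12). In an edgeR test of this change over the 14 libraries, blocked by day, these genes rose in shDis3l2 relative to shLacZ, against 4.85% of the 20050 genes tested. They were Acta2, Tagln, Cald1, Tpm2, Myocd and Des, with log2 values from 1.16 to 3.75, and without d4 the number called was 3. Acta2 was then not called (1.45, adjusted p = 0.0755, beside 3.43 and 0.0152 with all days), and without the day block none of the 10 was. Actg2, Myh11, Lmod1 and Cnn1 did not pass, with log2 values of 5.56 (SE 2.15, adjusted p = 0.122), 3.84 (SE 1.14, adjusted p = 0.0571), 2.72 (SE 0.80, adjusted p = 0.0547) and 1.54 (SE 0.54, adjusted p = 0.0957). Scaling by library totals in place of TMM moved the median of all genes in this test from -0.04 to 0.13 and the split of all calls from 972 higher and 1051 lower to 1139 and 415, and the number of members called was 6 under either scaling. In the comparison of the periods the same choice moved the median from -0.08 to 0.07 and the split from 3294 higher and 4507 lower to 3437 and 3350, and Des was then not called.

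Of 24 other genes of the smooth muscle contractile apparatus, 23 could be tested over d6 to d12, of which 16 rose in shDis3l2 and 7 did not pass, with a median log2 fold change of 0.81. Over all genes in this test 19.6% rose and 18.7% fell, and the counts of the lists that follow stand beside these shares. Myl9, the regulatory light chain of smooth muscle myosin, was at 3.83, 5.92, 8.23 and 8.53 CPM in shLacZ from d6 to d12 and at 32.7, 54.1, 49 and 33 CPM in shDis3l2 (log2 fold change 2.69, SE 0.22, edgeR adjusted p = 0.000509). The 4 shDis3l2 libraries lay well above those of shLacZ, as they did for the actin-binding Nexn (2.17, SE 0.31, adjusted p = 0.00256). Mylk, the kinase that phosphorylates this light chain, stood at 1.65, 3.02, 3.75 and 8.83 CPM in shLacZ and 2.36, 9.16, 19.3 and 48.6 CPM in shDis3l2 (1.87, SE 0.30, adjusted p = 0.00363), with its highest level in both lines at d12. Synpo2, a partner of alpha-actinin, gave 1.72 (SE 0.20, adjusted p = 0.00128).

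Of 25 regulators of smooth muscle genes, 12 rose, 4 fell and 9 did not pass, with a median of 0.35. Tgfb3, a ligand of the TGF-beta family, was at 0.752, 1.89, 2.3 and 2.38 CPM in shLacZ from d6 to d12 and at 1.32, 19, 58.5 and 67.4 CPM in shDis3l2 (log2 fold change 3.92, SE 0.48, edgeR adjusted p = 0.00152). Heyl, a target of Notch, rose by 2.56 (SE 0.37, adjusted p = 0.00267), and the mesenchymal homeobox genes Prrx1 and Prrx2 rose by 2.16 (SE 0.40, adjusted p = 0.0065) and 1.52 (SE 0.27, adjusted p = 0.00592). The 4 that fell were Klf4, Klf5, Gata4 and Foxo4, named here after their values were seen. Klf4, which represses smooth muscle genes, fell by 1.17 (SE 0.17, adjusted p = 0.0027) on the log2 scale.

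Among 17 paralogs of the 10 genes, most of which act in many cell types, 15 could be tested, of which 6 rose, 1 fell and 8 did not pass, with a median of 0.17. The risers were Actc1, Vim, Cnn2, Cnn3, Tpm1 and Myh10, with log2 fold changes from 0.39 for Cnn3 (SE 0.10, edgeR adjusted p = 0.0236) to 3.07 for Actc1. Tagln2, the transgelin of other cells, fell by 0.35 (SE 0.08, adjusted p = 0.0175) on the log2 scale, where Tagln rose. Myh9, the non-muscle myosin, did not pass (-0.16, SE 0.11, adjusted p = 0.265), while Myh10, its relative, rose by 1.15 (SE 0.14, adjusted p = 0.00156). Tpm1 was at 573, 276, 270 and 313 CPM in shLacZ and 1501, 745, 543 and 417 CPM in shDis3l2. The gap in CPM was widest at d6, while the ratio was 2.62 at d6 (2.55 to 2.69) and 2.7 at d8 (2.61 to 2.79).

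**Figure D4:**
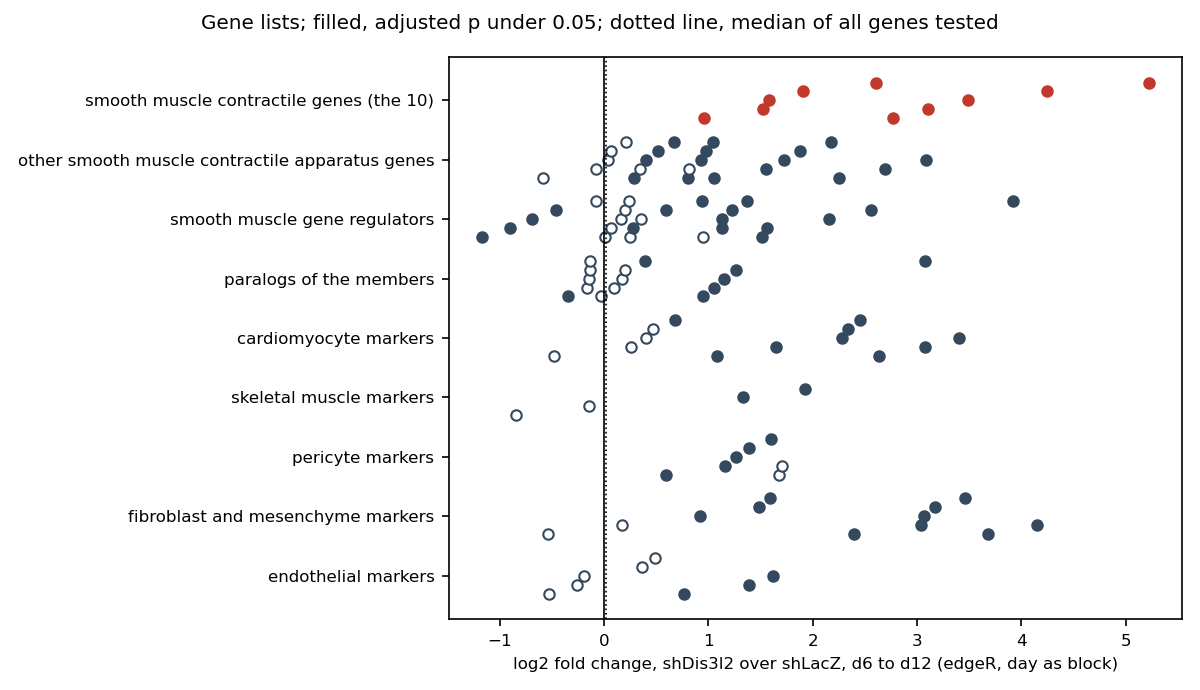
Log2 fold change of shDis3l2 over shLacZ across d6 to d12 (horizontal axis, edgeR with day as a block) for the 10 genes and 8 other gene lists, with 1 point per gene, filled where the adjusted p was under 0.05. The 10 genes lie between 0.96 and 5.22, and the paralogs have a median of 0.17.

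Markers of other cell types that can express these genes also moved with the lines. Of 12 fibroblast and mesenchyme markers 10 rose over d6 to d12 (median 2.71), and their summed level was 1840 to 3427 CPM in shLacZ and 4648 to 20305 CPM in shDis3l2. Col1a1, a chain of type I collagen, was at 32.3, 161, 355 and 146 CPM in shLacZ and 306.5, 1246, 3048 and 3539 CPM in shDis3l2, so that it was still high at d12 when Acta2 and Tagln had gone down. Dcn, which encodes decorin, gave 4.15 (SE 0.28, edgeR adjusted p = 0.000339). Of 14 cardiomyocyte markers, 13 could be tested and 9 rose (median 1.65), with a summed level of 50.3 to 127 CPM in shLacZ and 94.1 to 301 CPM in shDis3l2. Tnnt2, cardiac troponin T, reached 38.9 CPM at d10 in shDis3l2 (2.64, SE 0.30, adjusted p = 0.0012). Myl2 had the largest mean log2 ratio of this list among genes that reached 5 CPM (4.39). It was at 5.75 CPM in shDis3l2 and 0.118 CPM in shLacZ at d8. The heart regulator Nkx2-5, named after its values were seen, was at most 0.754 CPM in any library. Of 8 pericyte markers 7 could be tested and 5 rose (median 1.39), with summed levels of 133 to 254 CPM in shLacZ and 296 to 538 CPM in shDis3l2. Pdgfrb, a receptor of pericytes and other mural cells, was at 55.7, 43.5, 22.5 and 39.1 CPM in shLacZ and 153, 129, 97.5 and 99.9 CPM in shDis3l2 (adjusted p = 0.000525). Of 8 endothelial markers 3 rose, Kdr, Emcn and Cldn5 (median 0.43), and their summed levels overlapped, at 255 to 394 CPM in shLacZ and 370 to 489 CPM in shDis3l2. Cdh5, the cadherin that defines endothelial junctions, did not pass (-0.53, SE 0.25, adjusted p = 0.141), at 27.4, 58.3, 34 and 119 CPM in shLacZ and 40.2, 38.7, 18.6 and 55.4 CPM in shDis3l2. Of 12 skeletal muscle markers only 4 could be tested, of which 2 rose, Tnni2 and Tnnt3, and 2 did not pass. The mean log2 ratio over d6 to d12 was 1.3 for Tnnt3, -1.21 for Myh3 and -0.93 for Mylpf. Myh3 held 1 read in shDis3l2 and 5 in shLacZ at d6. Mylpf was at 1.98 CPM in shDis3l2 and 13.4 CPM in shLacZ on that day. At d6 Tnnt3 was at 31.6 CPM in shDis3l2 and 9.09 CPM in shLacZ. The summed levels of this list also overlapped, at 18 to 31.4 CPM in shLacZ and 23.8 to 40.2 CPM in shDis3l2. Myod1 and Myog, which define that lineage and are named after their values were seen, held no read in 7 and 9 of the 14 libraries and were at most 0.341 and 0.417 CPM. The part of these cell types in the levels of the 10 genes was not tested. Actc1, Acta1, Tpm1 and Notch3 each stand in more than 1 of these lists.

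Over the 14 libraries, the pattern of each gene was set beside the mean of the others, as a description across libraries that share lines and days. Pearson's r of log2(CPM + 1) with the mean standardized profile of the other members was 0.89 for Tpm2, 0.88 for Lmod1, 0.86 for Actg2, 0.85 for Cald1 and Myh11, 0.83 for Myocd and 0.80 for Tagln and Acta2. It was 0.38 for Cnn1 and -0.21 for Des, which were highest at d4 and d0. The protein-coding genes most like the mean profile of all 10 among 15355 ranked were Lrrc49 (r = 0.949), Thra (0.948), Gm8773 (0.946), Gpr153 (0.945) and Eya4 (0.942). Gpr153 was at 8.57, 8.82, 8.72 and 9.62 CPM in shLacZ from d6 to d12 and at 32.5, 58.3, 74.9 and 79.97 CPM in shDis3l2.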

How the data were processed

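Per the study's methods the authors aligned reads to GRCm38 with Subread, and they deposited featureCounts counts of whole reads per gene without normalization, plus a table of CPM values of protein-coding genes, used here only as an alternative. Columns named shm5 were read as shDis3l2. CPM was recomputed on library totals over all genes, with a prior count of 0.25 for calls of at least 3-fold. Ratios carry 95% Clopper-Pearson intervals of the read split, and 3 reads, the floor, equal 0.0752 CPM in the deepest and 0.418 CPM in the shallowest library. Tests used the quasi-likelihood F test of edgeR 4.0.16 under R 4.3.3 after filterByExpr and TMM scaling, with the SE taken from the fold change and F, and DESeq2 1.42.0 as an alternative. Tables were made in Python 3.11.15. Fits, folds and intervals were tested on simulated data. Genes were named by rule: all members, and fixed paralogs and SRF partners. From each other list up to 4 genes were taken by the largest absolute mean log2 fold over d6 to d12. These had to reach a CPM of at least 5 in 1 library. The 10 genes and the lists were chosen with earlier results of these data known. Gene types came from the CPM table and GENCODE M21.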

Additional observations from a re-analysis of the deposited data

Results flagged for a closer look

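For 6 of the 10 genes the difference between the lines differed between the periods d0-d4 and d6-d12, by an edgeR test of that change itself. The log2 change of the difference was 3.43 for Acta2 (SE 0.70, adjusted p = 0.0152), 3.07 for Tagln (SE 0.39, adjusted p = 0.00371) and 3.75 for Myocd (SE 0.95, adjusted p = 0.0371). It was 1.53 for Cald1 (SE 0.26, adjusted p = 0.00954), 1.68 for Tpm2 (SE 0.26, adjusted p = 0.00718) and 1.16 for Des (SE 0.31, adjusted p = 0.0397). For Acta2, Tagln, Cald1, Myocd and Des the library labelled shDis3l2 was lower than shLacZ at d4 and higher at d6, although for Myocd and Des the interval at d4 held 1. Of 12 alternative fits, Tagln, Cald1 and Tpm2 passed in 11, Acta2 in 10, and Myocd and Des in 6. Without d4 the value of Acta2 was 1.45 (adjusted p = 0.0755).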

How the results depend on the processing

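Days stand in for replicates, 1 shRNA line was sequenced per target, and the low genes rest on few reads, so their ratios are imprecise. The labels give no replicate numbers, and the 2 libraries of each day were paired through the day block. The comparison of d6 to d12 with d0 to d4 had no such block and was fitted with line and period only.

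Over d6 to d12, between 9 and 10 of the 10 genes were called in each of the 9 alternative fits, and only Des was lost, without d8, without d10 and with no day block. Without the block, 3334 genes in all were called where 6574 were called with it, and leaving out each day in turn gave 3336 (without d10) to 6677 (without d6), with 3449 without d8. Over d0 to d12 the 2 calls among the 10 genes became 7 without the filter, 6 with DESeq2, and 0 to 5 with each day left out, with 0 where d8, d10 or d12 was missing. With no day block edgeR called 0 of the 10 genes and 0 genes in all, although 6 of the 10 and 627 in all had an unadjusted p under 0.05. All calls in that test, 1147, became 2093 without the filter, 2511 with DESeq2 and 8 to 2189 with a day left out. For the change of the difference the 6 calls became 10 without the filter, 3 to 8 with a day left out (3 without d4), and 0 with no day block, where 7 of the 10 and 713 genes in all had an unadjusted p under 0.05. All calls there, 2023, became 3279 without the filter, 0 with no day block, and 524 (without d2) to 2151 (without d6). The fall of Des between the periods was called with TMM and not with library totals (0 genes lower, 1 at an unadjusted p under 0.05). DESeq2 also gave 0 lower, but it gave Des no adjusted p. With a day left out 0 to 1 of the 10 was lower, with 0 without d8, d10 or d12 (adjusted p of Des 0.102, 0.107 and 0.124). Without d0 the 1 gene was Cnn1, and Des was at -0.18 (adjusted p = 0.633).

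On single days, without a minimum CPM 2 of the 10 genes were higher and 2 lower at d0, and TMM scaling gave 1 lower. A minimum of 5 CPM left 0 higher at d2 and 4 at d6, and a fold of 2 gave 2 higher at d2 and 1 lower at d4. For d6 against d4, TMM scaling gave 1 gene higher in shLacZ, and a fold of 2 gave 1 higher and 3 lower there and 1 lower in shDis3l2. For d12 against d0 in shDis3l2, TMM scaling, DESeq2 size factors and a fold of 2 gave 1 lower each. These counts stand without a share of all genes and describe the members only. Of the fitted changes of single genes, 370 kept their call under the alternatives, 31 passed only there, 34 passed no longer and 2 reversed. Those were between the periods, where Cnn1 ran from -1.996 to 0.11 and was above 0 without d4 (adjusted p = 0.932), and Tpm2 ran from -0.14 to 0.54 and was below 0 without d2 (adjusted p = 0.736). Of the single-day ratios 187 stayed within their interval and 8 moved out of it. The cause of these changes was not tested.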
